A study of Mus musculus with 27 samples.

Results

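The genes described here are the 5 that carry the acetylcholine cycle of a nerve terminal: Chat, Slc18a3, Slc5a7, Slc10a4 and Ache. They were selected by gene symbol, for their known roles and with earlier results of these data known. They are 5 of the 19301 genes with a probe set of their own on the array. Each had 1 probe set, and all 5 passed the filter on dim genes, a log2 value above 2.83 (the median of all values) on at least 3 of the 27 arrays, as did 12441 genes in all.

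Starburst amacrine cells are the acetylcholine neurons of the retina, known for their part in direction-selective responses. In a cholinergic terminal the choline transporter Slc5a7 takes up choline, the synthase Chat joins it to an acetyl group, and the transporter Slc18a3 loads the product into vesicles. Slc10a4 is a vesicle protein that lies beside Slc18a3 in cholinergic neurons, and Ache is the enzyme that splits the released transmitter. Cones are photoreceptors, which release glutamate.

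RNA from 200 sorted retinal cells of adult mice was hybridised to each array, with 3 arrays in each of 9 groups. Starburst cells carried RFP from Rosa26-LSL-RFP mice crossed to 129S6-Chat_tm1(cre)Lowl/J, in which Cre expressed from the Chat locus switches on the reporter. Cones carried GFP under Chrnb4 regulation (line Tg(Chrnb4-EGFP)1Gsat), and the Arc amacrine cells, a batch control, carried GFP under Arc regulation (line Tg(Arc-EGFP)194Gsat/Mmcd). Besides pure starburst, pure cone and Arc groups, 6 mixtures held 150, 125, 100, 50, 43 or 17 starburst cells, with cones making up the rest. The labels give every group a background mixed from C57BL/6J and an FVB/N-Swiss Webster hybrid, and the latter is stated to carry a recessive photoreceptor-degeneration mutation. Retinas were pooled before sorting, and replicates came from different mice. Each cell type came from 1 line, so cell type and line cannot be told apart. Since the starburst sort itself used Cre made at the Chat locus, a high Chat locus signal in that group is partly the sort's own criterion.

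The sorts can be read from markers outside the 5 genes. Of 10 other starburst markers, 9 were above the filter level on all 3 pure starburst arrays (Megf10 was not) and 4 on all 3 pure cone arrays. Summed over 9 cone markers, the linear signal was 97.3 to 289 in pure starburst, 5121 to 12688 in pure cone and 77.8 to 194 in Arc arrays. Rod markers were present in every group, with sums over 6 genes of 738 to 1249 in pure starburst, 3242 to 5030 in pure cone and 373 to 626 in Arc arrays. On the third pure cone array the mean log2 value of the cone markers was 7.79, against 9.25 and 9.19 on the other two, and that of the rod markers was 8.85, against 7.43 and 7.44. The third arrays of 5 of the 6 mixtures, all but that with 100 starburst cells, also had the lowest cone and the highest rod marker mean of their groups, although by the linear sum the rod value of the third array was the lowest with 43 and with 125 starburst cells. Results were therefore also computed without the third array of every group.

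The promoters of 3 of the genes are shown because Slc18a3 lies inside the Chat gene on the same strand but differed far more between cell types, while Slc10a4, on another chromosome, had a pattern across groups close to that of Slc18a3. Each promoter is the 250 bases before the RefSeq start of the gene in GRCm38.p6, on the gene's strand. Capitals mark the GC box GGGCGG and the homeodomain core TAAT on either strand. All 5 genes had a promoter in that table.
Chat, chr14:32465910-32466159, minus strand: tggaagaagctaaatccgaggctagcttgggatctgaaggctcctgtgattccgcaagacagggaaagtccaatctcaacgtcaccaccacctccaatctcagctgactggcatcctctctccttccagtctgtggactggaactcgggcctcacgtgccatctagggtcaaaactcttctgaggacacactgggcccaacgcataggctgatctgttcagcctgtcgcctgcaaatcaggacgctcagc
Slc18a3, chr14:32464851-32465100, minus strand: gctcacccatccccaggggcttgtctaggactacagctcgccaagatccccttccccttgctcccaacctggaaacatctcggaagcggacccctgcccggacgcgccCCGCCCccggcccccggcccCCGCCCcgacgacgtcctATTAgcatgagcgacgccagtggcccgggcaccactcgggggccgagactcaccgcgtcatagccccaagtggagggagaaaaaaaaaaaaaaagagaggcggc
Slc10a4, chr5:73006654-73006903, plus strand: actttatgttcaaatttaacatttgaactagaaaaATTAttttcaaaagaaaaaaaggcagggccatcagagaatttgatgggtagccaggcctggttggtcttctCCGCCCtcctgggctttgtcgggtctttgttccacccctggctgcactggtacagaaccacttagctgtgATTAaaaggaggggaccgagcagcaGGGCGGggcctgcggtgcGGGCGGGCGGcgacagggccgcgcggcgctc
The start sites of Chat and Slc18a3 are 1059 bases apart. The Chat window holds neither motif, the Slc18a3 window holds 2 GC boxes and 1 TAAT, and the Slc10a4 window holds 4 GC boxes, of which the last 2 share bases, and 2 TAAT. Of the genes not shown, Ache, which did not differ between starburst cells and cones, also has 4 GC boxes and no TAAT. The Slc5a7 window holds neither motif. Whether either motif has a part in the expression of the 5 genes was not tested. A GC box occurs in 32.7% and TAAT in 54.9% of 32851 such windows. The half-site TGACG, found in 17.8% of windows, occurs 1 time each in Chat and Slc18a3 and not in Slc10a4. The E-box CANNTG, found in 66.2%, occurs in all 3 windows. These are matches of letters only.

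Chat, the enzyme of acetylcholine synthesis, had low values on every array. Log2 values on the 3 pure starburst arrays were 3.85, 3.81 and 4.58, against 3.21, 2.87 and 3.05 in pure cones and 3.04, 2.71 and 2.79 in Arc cells. All starburst arrays lay above all cone and Arc arrays, although the cone and Arc values sat near the filter level. Pure cones were lower by a log2 difference of -1.04 ± 0.22 (SE, n = 3 arrays each, limma adjusted p = 0.00256), a 2.05-fold higher starburst value, and Arc cells by -1.23 ± 0.22 (limma adjusted p = 0.000941). In arrays of bulk cells, fewer cells of a type and less RNA per cell cannot be told apart. The third starburst array was the highest: without it the cone difference was -0.78 (limma adjusted p = 0.0256), and without the third array of every group it was -0.79 (limma adjusted p = 0.0892), neither of which met the call rule of an adjusted p under 0.05 and a log2 difference of at least 1. Without the second pure cone array it was -0.95 (limma adjusted p = 0.0164), also short of that fold. The Arc call of Chat was lost in the same ways, at -0.98 without the third starburst array (limma adjusted p = 0.0103) and -0.96 without the third array of every group (limma adjusted p = 0.0747).

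Slc18a3, the vesicular acetylcholine transporter, gave the largest difference of the 5 genes between starburst cells and either other cell type. Its log2 values were 10.62, 10.77 and 10.59 in pure starburst cells, 3.56, 3.10 and 2.81 in pure cones and 3.17, 2.84 and 3.25 in Arc cells. The starburst arrays were far above the others, and cone and Arc arrays overlapped near the filter level. The cone difference was -7.50 ± 0.23 (limma adjusted p = 4.85e-16), which is 181-fold on the linear scale, and the Arc difference was -7.57 ± 0.23 (limma adjusted p = 3.95e-16). Because the lower values are close to background, the size of these folds depends on where background lies.

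Slc10a4, the vesicle protein, showed the same order. Its log2 values were 8.09, 8.11 and 8.51 in pure starburst cells, 2.97, 3.06 and 2.72 in pure cones and 2.11, 2.01 and 2.64 in Arc cells. No starburst array came near the others, and each Arc array was below each cone array. Pure cones differed from starburst cells by -5.32 ± 0.19 (limma adjusted p = 1.68e-14; 39.9-fold on the linear scale) and Arc cells by -5.98 ± 0.19 (limma adjusted p = 1.43e-15). The Arc value was lower than the cone value by -0.66 ± 0.19 (limma adjusted p = 0.0203), short of the fold needed for a call, and 1 cone array and all 3 Arc arrays were below the filter level.

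Slc5a7, the choline transporter that feeds synthesis, was near the filter level in most arrays and above it on 20 of 27. Its log2 values were 3.56, 3.05 and 4.42 in pure starburst cells, 2.97, 3.05 and 2.51 in pure cones and 2.55, 2.43 and 2.75 in Arc cells. The starburst arrays spread widely and the lowest overlapped the cones, but all 3 lay above the Arc arrays. The cone difference of -0.83 ± 0.26 (limma adjusted p = 0.033) did not reach the fold for a call, while the Arc difference of -1.10 ± 0.26 did (limma adjusted p = 0.0101). The Arc call was lost without the third pure starburst array (-0.73, limma adjusted p = 0.0822), without the second Arc array (-1.03, adjusted p = 0.0517), without the third array of every group (-0.81, adjusted p = 0.0672) and with only the compared groups in the fit (limma adjusted p = 0.113). Without the second pure starburst array the cone difference was -1.15 and was called (limma adjusted p = 0.00416).

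Ache, the enzyme of breakdown, followed another order. Its log2 values were 5.61, 5.34 and 4.97 in pure starburst cells, 5.59, 5.16 and 5.79 in pure cones and 7.65, 7.78 and 7.86 in Arc cells. Starburst and cone arrays overlapped, and all Arc arrays lay above both. Arc cells were higher than starburst cells by 2.46 ± 0.44 (limma adjusted p = 0.000886; 5.49-fold) and higher than cones by 2.25 ± 0.44 (limma adjusted p = 0.000893; 4.75-fold). Between cones and starburst cells the difference was 0.21 ± 0.44 (limma adjusted p = 0.82), with a 95% interval from -0.71 to 1.13, so a fold of more than 2 higher in cones is within it. Of 4 tested ganglion cell markers, Thy1 alone was called in these comparisons with Arc cells, while Nefl, Nefm and Sncg were not. Thy1 was higher in Arc cells by 2.52 ± 0.37 than in starburst cells (limma adjusted p = 7.66e-05) and by 2.33 ± 0.37 than in cones (limma adjusted p = 8.1e-05). Of all tested genes, 2.16% were called higher in Arc than in starburst cells and 7.83% higher than in cones. Over 6 ganglion cell markers the mean log2 value was 3.61 to 3.86 in Arc, 2.86 to 3.20 in pure starburst and 3.10 to 3.50 in pure cone arrays, and 4, 2 and 3 of the 6 were above the filter level on all 3 arrays. Over 7 amacrine markers it was 6.45 to 6.62, 5.35 to 5.55 and 3.76 to 4.39. Their part in the Ache result was not tested.

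**Figure D1:**
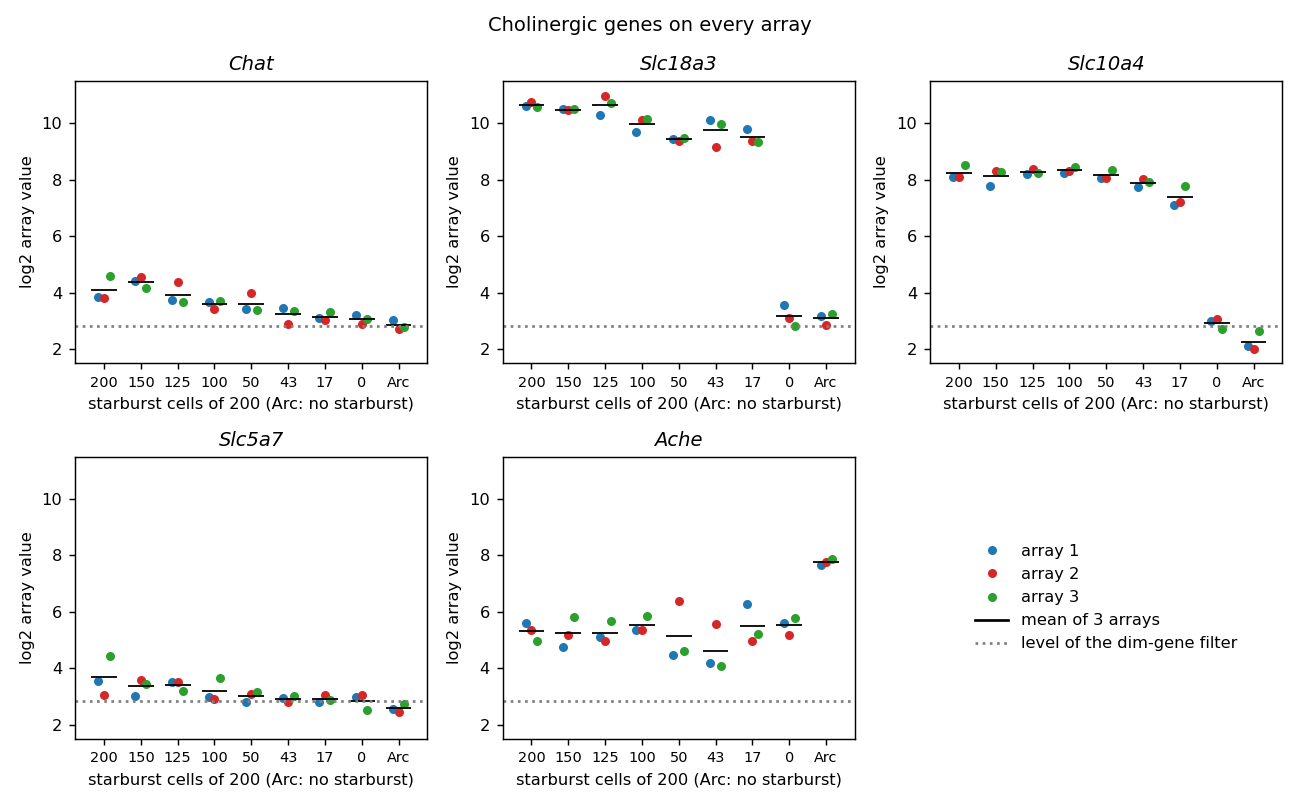
Log2 array values of the 5 genes (y axis) in the 8 groups ordered by number of starburst cells out of 200 and in the Arc cells (x axis). Points are single arrays, coloured by replicate number, black lines are means of 3 arrays, and the dotted line is the filter level of 2.83. Slc18a3 and Slc10a4 stay high down to 17 starburst cells and drop in pure cones, Chat and Slc5a7 lie close to the dotted line, and Ache is highest in Arc cells.

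Counted together, 3 of the 5 genes were called between pure cones and pure starburst cells, all lower in cones, where 5.79% of all tested genes were called lower and 8.42% in either direction. Between Arc and starburst cells all 5 were called, 4 lower and 1 higher in Arc, against a background of 3.55% (1.39% lower, 2.16% higher). Both comparisons share the starburst arrays, so their values are not independent. The 5 genes were chosen with earlier results of these data known, so the background percentages are no blind comparison. Only Ache was called between Arc cells and cones, where 10.3% of tested genes were called. The 3 arrays of each group did not overlap for 3 of the 5 genes between cones and starburst cells (28.9% of tested genes) and for 5 of 5 between Arc and starburst cells (25.0% of tested genes).

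**Figure D2:**
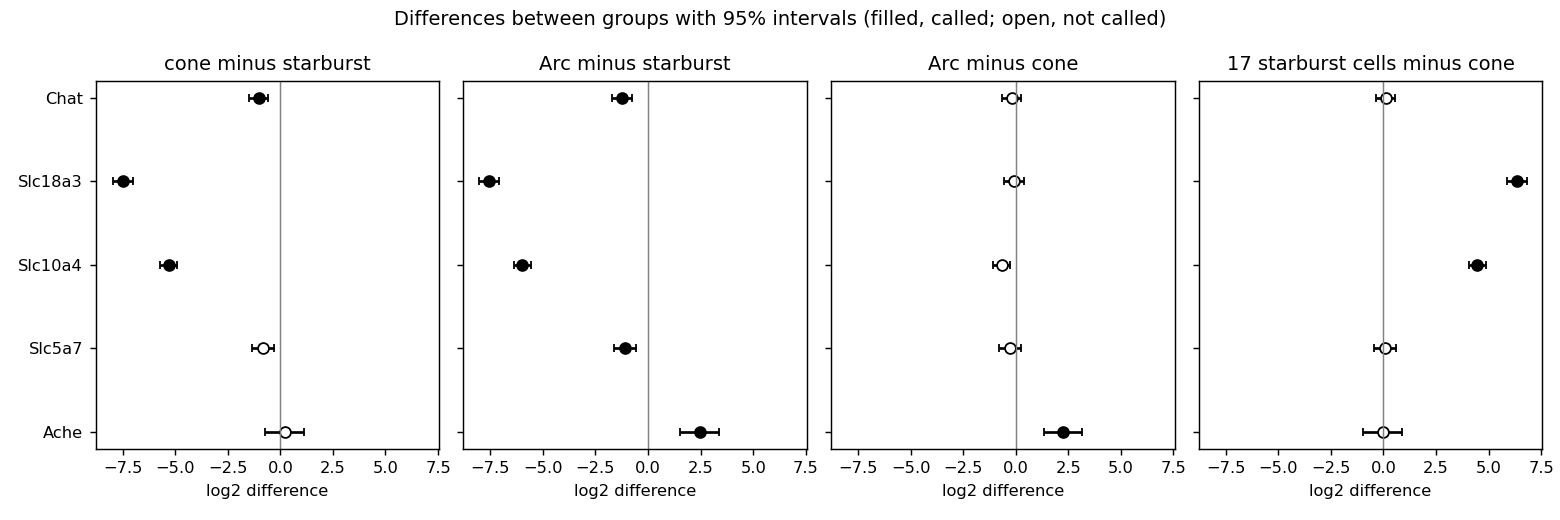
Log2 differences between groups (x axis) of the 5 genes (y axis) in 4 comparisons, with 95% intervals from the limma fit of 27 arrays. Filled points met the call rule. Slc18a3 and Slc10a4 lie far from 0 wherever only 1 side holds starburst cells, and Ache only where Arc cells are compared.

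With 17 starburst cells among 183 cones, the vesicle genes were already high. Slc18a3 had log2 values of 9.80, 9.38 and 9.33 and exceeded pure cones by 6.34 ± 0.23 (limma adjusted p = 1.61e-14; 81.3-fold). Slc10a4 had values of 7.11, 7.21 and 7.79 and exceeded them by 4.45 ± 0.19 (limma adjusted p = 6.65e-13; 21.9-fold). All 3 arrays of both genes lay far above every pure cone array. The other 3 genes were not called: Chat had values of 3.10, 3.02 and 3.32 (difference 0.10 ± 0.22, limma adjusted p = 0.956), Slc5a7 of 2.80, 3.06 and 2.88 (0.07 ± 0.26, adjusted p = 0.979), and Ache of 6.27, 4.95 and 5.23 (-0.03 ± 0.44, adjusted p = 0.995). Their arrays overlapped those of pure cones. In this comparison 0.731% of tested genes were called, and 0.651% called higher. That was 91 genes, and only 8 when the fit held the compared groups alone, with both vesicle genes called in either fit.

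Across the mixtures the vesicle transporter fell in level with fewer starburst cells. Slc18a3 values were 10.50, 10.46 and 10.50 with 150 starburst cells, 10.30, 10.98 and 10.70 with 125, and 9.69, 10.11 and 10.16 with 100. They were 9.43, 9.37 and 9.49 with 50 and 10.12, 9.16 and 9.97 with 43. The 3 arrays with 50 cells were tight and all below those with 100, whereas the 43-cell arrays spread over both. Group means ran, from the highest, 10.66 (125 cells), 10.66 (200), 10.49 (150), 9.99 (100), 9.75 (43), 9.50 (17) and 9.43 (50), so the order of means was not that of cell numbers.

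Slc10a4 was nearly flat from 200 to 50 starburst cells. Its values were 7.76, 8.33 and 8.29 with 150, 8.21, 8.39 and 8.23 with 125, and 8.24, 8.32 and 8.43 with 100. With 50 cells they were 8.07, 8.05 and 8.33, and with 43 they were 7.75, 8.02 and 7.91. Groups from 50 cells upward overlapped the pure starburst group. No array with 17 cells reached the lowest pure starburst array, 8.09, although the third, at 7.79, exceeded the lowest with 150 cells, 7.76.

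Chat had values of 4.40, 4.57 and 4.16 with 150 starburst cells, 3.75, 4.36 and 3.68 with 125, and 3.68, 3.43 and 3.70 with 100. They were 3.40, 3.99 and 3.37 with 50 and 3.46, 2.88 and 3.34 with 43. The highest mean, 4.37, belonged to 150 cells and not to the pure group, whose mean was 4.08 ± 0.44 (SD, n = 3), and the arrays of those groups overlapped.

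Slc5a7 stayed between 2.79 and 3.67 in all mixtures. Its means fell from 3.42 (125 cells) and 3.35 (150) through 3.18 (100) and 3.02 (50) to 2.92 with 43 and with 17 cells. Neighbouring groups overlapped throughout.

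Ache varied most between replicates. It had values of 4.47, 6.37 and 4.62 with 50 starburst cells and 4.19, 5.58 and 4.09 with 43, where in both groups the second array stood above the others. The range was 4.76 to 5.86 over the mixtures with 150, 125 and 100 cells. Its SD within groups, 0.58, was larger than that of 91.8% of tested genes, against 0.24 to 0.33 for the other 4.

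None of the 6 steps between neighbouring starburst cell numbers from 17 to 200 was called for any of the 5 genes by limma, and background calls there were 0.00% of tested genes in 4 steps, 0.0322% from 100 to 125 cells and 0.0482% from 150 to 200. The rule needs a log2 difference of at least 1, a 2-fold change. Cell number changed by at least 2-fold only from 17 to 43 and from 50 to 100 cells. In the other steps a signal in proportion to cells would not be called either, so the lack of calls does not show a flat signal. Of all 35 steps, including 17 against 0 cells, 2 were called, those of Slc18a3 and Slc10a4 at 17 against 0. The largest uncalled steps of the vesicle genes were 0.68 ± 0.23 for Slc18a3 from 100 to 125 cells (limma adjusted p = 0.353), 0.56 ± 0.23 for Slc18a3 from 50 to 100 (adjusted p = 0.601) and 0.52 ± 0.19 for Slc10a4 from 17 to 43 (adjusted p = 0.467). The first and the second of these had no overlap between arrays. Nor had the smaller steps of Slc10a4 from 43 to 50 cells (0.26) and of Slc18a3 from 150 to 200 (0.17). The share of all tested genes without overlap is not given for these steps, so the separation is description only.

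A slope of log2 value on log2 starburst cell number was fitted over the 21 arrays with starburst cells, where a slope of 1 means signal in proportion to cells. Slc18a3 had a slope of 0.38 ± 0.06 (SE; 95% interval 0.25 to 0.51, limma adjusted p = 0.000301) and Chat of 0.32 ± 0.06 (0.19 to 0.44, limma adjusted p = 0.000974). Slc10a4 had 0.23 ± 0.05 (0.13 to 0.33, limma adjusted p = 0.00235), Slc5a7 had 0.21 ± 0.06 (0.08 to 0.33, limma adjusted p = 0.0223) and Ache had 0.03 ± 0.11 (-0.20 to 0.26, limma adjusted p = 0.912). So 4 of the 5 genes rose with the number of starburst cells, where 9.27% of tested genes rose, and every interval lay below 1. The intervals of 1151 of the 1153 rising genes also lay below 1, and their median slope was 0.26. Rising genes with a small fold between pure starburst cells and cones could hardly reach 1 in any case. This share therefore does not show what is usual for genes with folds as large as those of Slc18a3 and Slc10a4. From 17 to 200 cells, an 11.8-fold change in number, the mean values rose 2.23-fold for Slc18a3, 1.91-fold for Chat and 1.82-fold for Slc10a4. For Slc5a7 and Ache the ratio of the means was 1.70 and 0.883. Slopes of Chat, Slc5a7 and Ache could hardly reach 1, since pure starburst values were only 2.05-fold, 1.78-fold and 0.864-fold those of pure cones. Their intervals below 1 thus do not tell whether the starburst signal was in proportion to cells. With the pure cone mean taken off, computed only for Slc18a3 and Slc10a4, slopes were 0.38 and 0.24.

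Over the 12 arrays of the titration alone (50, 100, 150 and 200 starburst cells), Slc18a3 rose more steeply, at 0.63 ± 0.07 (95% interval 0.49 to 0.78, limma adjusted p = 0.00094). Slc10a4 was then at 0.02 ± 0.09 (-0.17 to 0.20, limma adjusted p = 0.956). Chat at 0.34 (adjusted p = 0.171) and Slc5a7 at 0.30 (adjusted p = 0.282) no longer passed the limma test. Without the third array of every group Slc5a7 was at 0.15 (limma adjusted p = 0.137), and over the mixtures alone at 0.17 (limma adjusted p = 0.0646). Slopes were also compared between the genes in 10 pairs by a two-sided permutation test with 100000 resamples. None of the 10 passed adjustment over all arrays (smallest adjusted p = 0.168), with 2 under 0.05 before it, both against Ache (Slc18a3, permutation p = 0.0214, and Chat, permutation p = 0.0418). In the titration alone the slope of Slc18a3 exceeded that of Slc10a4 by 0.62 (permutation test, adjusted p = 0.0025), against 0.15 (permutation test, adjusted p = 0.242) over all 21 arrays.

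**Figure D3:**
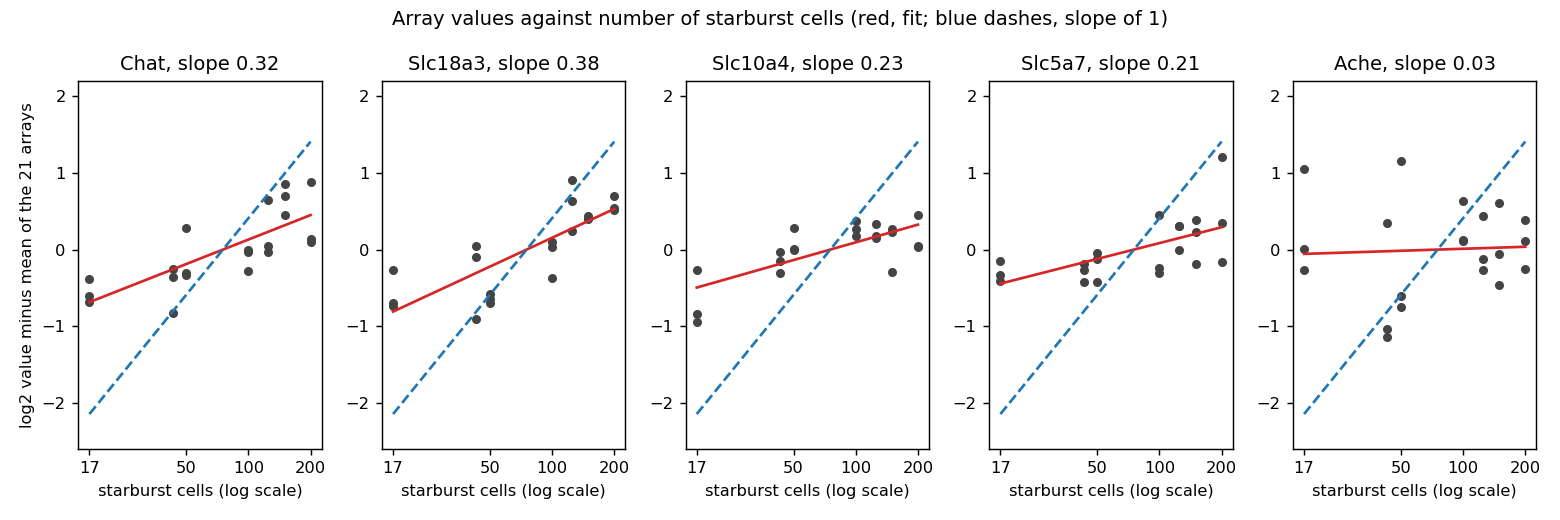
Log2 values of the 21 arrays with starburst cells, less each gene's mean (y axis), against the number of starburst cells on a log scale (x axis). Red lines are fitted slopes, from 0.38 for Slc18a3 to 0.03 for Ache, and dashed lines have a slope of 1. All fitted lines are flatter than the dashed ones, but for Chat, Slc5a7 and Ache the pure groups differ too little for a slope near 1.

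On the linear scale, each mixture was placed between the pure groups, with 0% at the mean of pure cones and 100% at the mean of pure starburst cells. With 17 starburst cells, 8.5% of the cells, Slc18a3 stood at 45.1% ± 8.61 (SD, n = 3) and Slc10a4 at 54.5% ± 15.3, while Chat stood at 6.62% ± 10.8. With 43 cells (21.5%) these positions were 55.2% ± 17.7, 77.8% ± 7.61 and 13.2% ± 20.5. With 50 cells (25%) they were 42.3% ± 1.86, 93.7% ± 10.8 and 43.3% ± 34.0. Slc10a4 thus neared the pure starburst level with 50 cells, and at 100 cells stood at 106% ± 7.45, against 63.2% ± 10.8 for Slc18a3 and 42.5% ± 13.5 for Chat. At 125 cells the positions were 102% ± 23.6 for Slc18a3, 102% ± 7.06 for Slc10a4 and 79.5% ± 46.7 for Chat, and at 150 cells 88.9% ± 1.37, 93.1% ± 19.4 and 137% ± 32.1. Without the third pure starburst array every Chat position was 1.55 times as large (10.3% at 17 cells, 20.5% at 43, 67.1% at 50, 65.9% at 100, 123% at 125 and 213% at 150). Without 1 pure cone array the Chat position at 17 cells ran from 1.30% (second array) to 11.4% (first array). All 18 mixture arrays lay above their cell share for Slc18a3 and 17 of 18 for Slc10a4, but 8 of 18 for Chat.

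Positions above the cell share were the rule among genes high in starburst cells. Of 175 such genes (at least 4-fold above pure cones and called), 163 were above 8.5% in the 17-cell mixture, with a median of 25.0%. Slc18a3 stood above 92.0% and Slc10a4 above 94.3% of them there. In the 50-cell mixture, Slc10a4 was above 98.3% and Slc18a3 above 54.9%. Calb2, which codes for the calcium-binding protein calretinin, stood at 44.9% with 17 cells, the transcription factor genes Sox2 at 35.6% and Isl1 at 27.7%, and Gad1, of GABA synthesis, at 25.6%. The cone and rod marker values given above differed between arrays of 1 mixture, and their part in the positions was not tested.

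**Figure D4:**
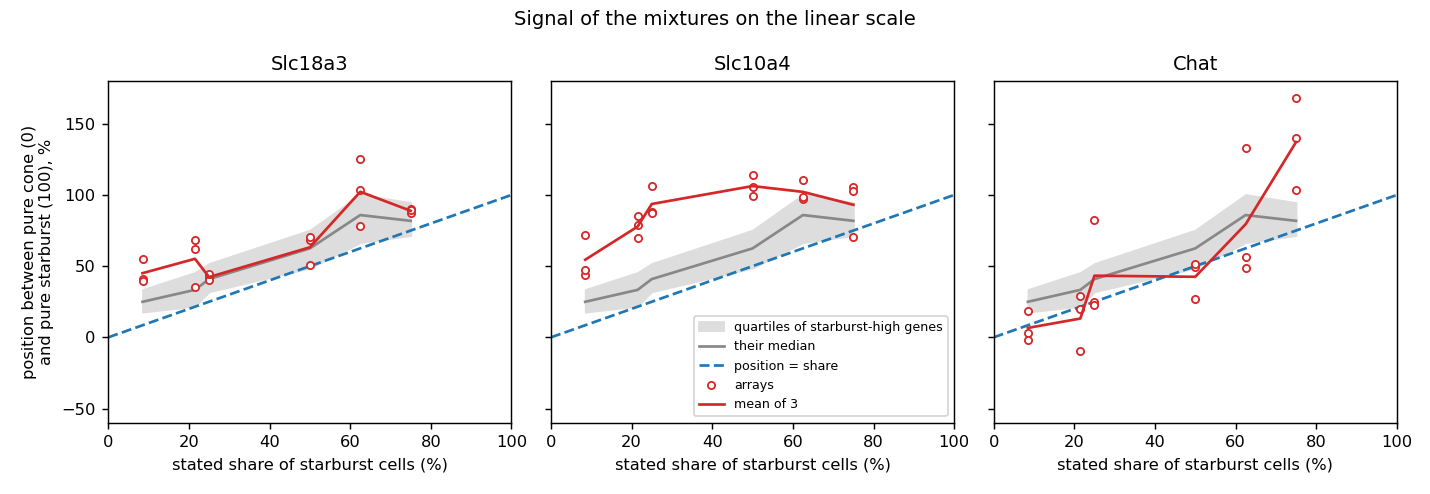
Position of each mixture between pure cones (0%) and pure starburst cells (100%) on the linear scale (y axis) against the stated share of starburst cells (x axis), for Slc18a3, Slc10a4 and Chat. Open points are arrays, red lines means of 3, the grey line and band the median and quartiles of 175 genes high in starburst cells, and the dashed line equal position and share. Slc10a4 is above the band up to a share of 62.5%, and Chat scatters around the dashed line.

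The patterns of the 5 genes across the 9 group means were alike to different degrees. Pearson r was 0.990 between Slc18a3 and Slc10a4 and 0.907 between Chat and Slc5a7. Chat and Slc5a7 had r of 0.71 to 0.75 with Slc18a3 and Slc10a4. Ache had values of -0.75 to -0.48 with the others over 9 groups and -0.34 to 0.09 without the Arc group. Means of 1 group share arrays and cells, and the contrast of groups with and without starburst cells sets most of the first value. Within groups, deviations of single arrays gave r = 0.02 for Slc18a3 with Slc10a4, 0.57 for Slc5a7 with Slc10a4 and 0.51 for Chat with Slc5a7 over 27 arrays. Most like Slc18a3 over the 9 groups were Cmtm8 (r = 0.997), Calb2 (0.996), Igfbp7 (0.993), Cck (0.993) and Sox2 (0.990). Slc10a4 had Calb2 (0.995), Slc18a3, Cmtm8 (0.989), Sox2 (0.984) and Cck (0.982). Nearest to Chat were Hs2st1 (0.984), Egfem1 (0.984), Cgnl1 (0.975), Zfhx3 (0.974) and Cad (0.969), and nearest to Slc5a7 were Fezf1 (0.980), Wnt2b (0.977), Ephb6 (0.976), Slc25a18 (0.969) and Sfrp2 (0.966). Ache was nearest to Tmem215 (0.964), Lss (0.963), Rnf14 (0.962), Gdpd3 (0.960) and Zswim1 (0.960). Without the Arc group, 7 of these 25 neighbours remained among the closest 5.

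Other genes of the pathway are given by list, and the lists too were chosen with earlier results of these data known. Of 22 genes for choline and acetyl-CoA supply, 11 were tested and none was called between cones and starburst cells (1 at an unadjusted limma p under 0.05), with a median log2 difference of 0.02 against -0.04 over all tested genes. In Arc cells 2 of the 11 were higher than in starburst cells (2.16% of all tested genes), the mitochondrial citrate carrier Slc25a1 by 1.57 ± 0.37 (limma adjusted p = 0.0095) and the phosphatidylethanolamine methyltransferase Pemt by 1.08 ± 0.28 (limma adjusted p = 0.0188). Colq and Prima1, which anchor Ache, were tested and not called in any of the 3 comparisons of cell types or in the slope (1 of 2 at an unadjusted limma p under 0.05 between cones and starburst cells, none in the others).

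Among acetylcholine receptors, 5 of 16 nicotinic subunit genes passed the filter, and 3 of the 5 were higher in cones than in starburst cells (2.64% of all tested genes). These were Chrna5 by 2.45 ± 0.79 (limma adjusted p = 0.0407), Chrna3 by 1.49 ± 0.39 (adjusted p = 0.0119) and Chrnb4 by 1.35 ± 0.44 (adjusted p = 0.0448). They are the genes of the Chrnb4 cluster, and the cone line's reporter transgene is driven by Chrnb4 regulatory sequence, so line and cell type cannot be told apart for them. The third pure cone array was the lowest for each: 5.46, 6.10 and 3.08 for Chrna5, 4.91, 4.79 and 3.39 for Chrna3, 4.71, 4.22 and 3.26 for Chrnb4. The Chrna5 starburst values, 2.17 to 2.76, lay below the filter level. No result without the third arrays is given for these genes. All 5 muscarinic receptor genes were tested and none was called by limma in any of the 3 comparisons of cell types or the slope, with 1 at an unadjusted p under 0.05 between Arc and starburst cells and none in the others. Lynx1, whose product binds and dampens nicotinic receptors, was higher in cones by 1.82 ± 0.39 (limma adjusted p = 0.0026) and in Arc cells by 1.80 ± 0.39 (limma adjusted p = 0.0057), the only call among 5 assembly and modulation genes in each of these comparisons with starburst cells.

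Vesicle genes that serve all transmitters were lower in cones in part. Of 16 tested vesicle glycoprotein and proton pump genes, 5 were lower in cones than in starburst cells (5.79% of all tested genes) and none higher, with a median of -0.68 against -0.04 over all tested genes. Among pump subunits Atp6v1e1 was lower by -1.95 ± 0.27 (limma adjusted p = 2.18e-05), Atp6v1g2 by -1.65 ± 0.28 (limma adjusted p = 0.000265) and Atp6v1d by -1.17 ± 0.25 (limma adjusted p = 0.00253). Arc cells differed from starburst cells in 1 of the 16 (3.55% of all tested genes). This was Atp6v0a1, named after its value was seen and higher by 1.03 ± 0.30 (limma adjusted p = 0.0476). From cones Arc cells differed in 11 of the 16 (10.3% of all tested genes), of which 10 were higher in Arc cells (7.83%). Of 3 tested vesicular transporters of other transmitters, 1 was called lower in cones than in starburst cells (5.79% of all tested genes). This was the GABA and glycine transporter Slc32a1, lower by -1.23 ± 0.17 (limma adjusted p = 3.02e-05), with means of 8.04 in starburst, 6.81 in cone and 8.31 in Arc cells. None of the 5 measured relatives of Slc10a4 passed the filter. Of 7 tested transcription factor genes linked to cholinergic neurons, Isl1 alone was called. It was lower in cones by -4.63 ± 0.39 and in Arc cells by -5.75 ± 0.39 (limma adjusted p = 2.52e-08 and 6.41e-10), and rose with starburst cells at a slope of 0.53 ± 0.06. Of all tested genes, 5.79% were called lower in cones, 1.39% lower in Arc cells and 9.27% rising.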

How the data were processed

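Values were the deposited log2 expression values of 22347 probe sets on 27 arrays, made by the authors with RMA (oligo package, R 2.11.1, genome build mm9), per the submitters' processing notes. Probe sets were named from the platform annotation: 19446 had 1 symbol, 735 several and 2166 none. The probe set with the highest mean stood for a gene.

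All 27 arrays entered 1 limma 3.58.1 fit (R 4.3.3) with a mean per group, and p-values were adjusted by Benjamini-Hochberg over the 12441 genes above the filter. A call needed an adjusted p under 0.05 and an absolute log2 difference of at least 1, and for slopes the adjusted p alone. Scripts were tested on simulated data. Named besides the 5 genes are, in each pathway list, up to 3 called genes with the largest difference from pure starburst cells, the 5 genes nearest each member and the markers. The 5 genes and the lists were chosen with earlier results of these data known. Alternatives covered the filter, array centring, a replicate block, the variance trend, fewer groups and arrays left out. Array number limits precision. Correlations between replicate arrays ran from 0.935 to 0.979, and no arrays were identical. Promoters came from RefSeq. Their build differs from mm9, and no array position was read from it. Same-numbered arrays deviated together at r = -0.03 to 0.31, over 0.1 throughout in 1 of 36 group pairs, so the numbers were not treated as pairs.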

Additional observations from a re-analysis of the deposited data

How the results depend on the processing

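Of the 1367 alternatives to 65 tested values of single genes, 1351 kept their side of the threshold. Most of the 1367 belonged to steps between neighbouring starburst cell numbers, pure cones not included. None of those steps was called, and each kept its side in all of its 31 alternatives. In most of them a signal in proportion to cells would not be called either, so the share kept says little about stability. All changes of side were among the other values. In 46 of the 1367 alternatives the sign changed, each time of a value that had not passed (smallest adjusted p = 0.242), such as Ache between cones and starburst cells. The replicate block left the members called at 3 (cone against starburst), 5 (Arc against starburst), 1 (Arc against cone), 2 (17 cells against cone) and 4 (slope). Without the third array of every group, 3 members were called between Arc and starburst cells. Leaving out 1 array gave 2 to 4 members called between cones and starburst cells and 3 to 5 between Arc and starburst cells. The lowest count came without the third pure starburst array in both, and in the first also without the second pure cone array. The calls lost against Arc were those of Chat and Slc5a7. With only the compared groups fitted, 8 genes were called between 17 starburst cells and pure cones, and leaving out 1 array gave 80 to 111. Slopes over the titration alone were called for 1 member and 441 genes, and over the mixtures alone for 780 genes, against 1680. In the titration alone, 1 pair of members differed in slope. Without Arc cells 7 of 25 neighbours remained. Taking off the pure cone mean gave slopes of 0.38 for Slc18a3 and 0.24 for Slc10a4. Leaving out 1 pure array moved 6 positions by more than the SD, those of Chat to as high as 213% without the third pure starburst array. The causes were not tested. Other probe sets could not be tried, since each member has 1. Values of Chat and Slc5a7, and of all but Ache in cones and Arc cells, lie near background, where differences are compressed.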
